A study of Arabidopsis thaliana with 18 samples.

Results

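In mock-sprayed leaves, 37 of the 32678 genes in the count table were at a high level 12 h after the spray and at a low level at both 6 h and 24 h. They were chosen from the 9 mock libraries alone, on counts per 1e6 gene counts (CPM). A gene was taken when its mean at 12 h was at least 10 CPM and when that mean, with 0.5 CPM added, was at least 8 times the mean at 6 h and at 24 h with the same 0.5 CPM added. The mock levels are therefore a description of what was chosen and are given without a test.

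The leaves came from 4-week-old soil-grown Arabidopsis thaliana plants of the line ED-P4E1, kept under a 10 h photoperiod. All plants, mock and estradiol alike, were of the Col-0 background with both mutations eds1-2 and pad4-1, and carried EDS1 driven by the CaMV 35S promoter, which is active in most cell types, and PAD4 driven by a promoter that estradiol switches on. The spray held 10 uM estradiol, or 0.2% DMSO as mock, each with 0.01% of a silwet surfactant, and polyadenylated RNA was sequenced from leaves taken at 6, 12 and 24 h, with 3 libraries in each of the 6 groups and 18 in all. An estradiol-treated line without the PAD4 transgene was not analysed here, the hour of day of the spray is not given in the sources used here, and nothing in the labels says that the libraries of a group are of different plants, so the p-values cover only the spread among these libraries, which may be technical. In whole leaves, fewer cells of a type and less RNA per cell cannot be told apart.

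Leaf transcripts follow the day through the circadian clock, in which factors expressed at dawn repress factors expressed in the evening and the reverse. Many clock-controlled genes carry the evening element in their promoters, which MYB-like clock factors bind. PAD4 and EDS1, related to lipases by sequence, bind each other in immunity and promote salicylic acid signalling, and TGA factors, partners of the salicylic acid receptors, bind promoters at TGACG sequences.

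The promoters of 4 of the 37 genes are printed here to show both of these sequences in genes that the results below turn on. Each line gives the 250 bases before the annotated transcript start, 5′ to 3′ on the gene's strand, from the RefSeq TAIR10.1 assembly. Capitals mark the evening element core AATATCT, on either strand, in BOA (chr5:24003638-24003887, plus strand) and RVE2 (chr5:14753089-14753338, minus strand). In PCC1 (chr3:7846834-7847083, minus strand) and AT3G22235 (chr3:7855815-7856064, minus strand), capitals mark TGACG on either strand.
BOA: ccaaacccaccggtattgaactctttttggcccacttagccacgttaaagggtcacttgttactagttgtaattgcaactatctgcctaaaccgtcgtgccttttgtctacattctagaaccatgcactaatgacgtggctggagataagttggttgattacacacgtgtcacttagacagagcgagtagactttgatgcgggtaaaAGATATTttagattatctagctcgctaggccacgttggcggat
RVE2: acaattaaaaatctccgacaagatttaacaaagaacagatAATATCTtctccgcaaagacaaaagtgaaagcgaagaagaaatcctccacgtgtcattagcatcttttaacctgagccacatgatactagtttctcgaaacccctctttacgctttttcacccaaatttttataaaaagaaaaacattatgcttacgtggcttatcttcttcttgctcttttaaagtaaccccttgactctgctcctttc
PCC1: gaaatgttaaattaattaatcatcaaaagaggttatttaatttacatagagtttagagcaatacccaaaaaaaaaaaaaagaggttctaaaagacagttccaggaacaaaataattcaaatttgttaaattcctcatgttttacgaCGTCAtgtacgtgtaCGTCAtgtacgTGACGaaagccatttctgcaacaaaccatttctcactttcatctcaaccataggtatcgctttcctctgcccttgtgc
AT3G22235: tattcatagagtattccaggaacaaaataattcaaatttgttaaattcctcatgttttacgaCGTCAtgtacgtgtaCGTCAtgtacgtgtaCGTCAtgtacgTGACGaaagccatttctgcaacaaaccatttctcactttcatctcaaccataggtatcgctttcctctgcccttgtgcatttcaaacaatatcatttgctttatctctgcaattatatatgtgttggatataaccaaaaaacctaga

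BOA and RVE2 each held 1 copy of the evening element core within these bases. BOA also held 1 copy of TGACG there, left in lower case, since which sequence was marked followed the call at 24 h. PCC1 held 3 copies of TGACG here and a further 1 within 500 bases, AT3G22235 held 4, and the windows of these neighbouring genes shared an unbroken run of 105 bases. Over 500 bases before the start and both strands, AATATCT was found in 11 of the 37 promoters (29.7%) and in 18.2% of the promoters of all genes tested. Among the promoters that held it were those of BOA, BT2, COL9, RVE2 and SDG4, and also those of BG3, PCR1, FLOT1, AT1G48210 and AT3G60420, while that of JMJD5 did not. TGACG was found in 29.7% of the 37 promoters and in 33.2% of all, the W-box core TTGAC, which can overlap TGACG by 4 letters, in 64.9% and 66.9%, the G-box CACGTG in 8.11% and 10.3%, and the E2F core TTCCCGC in 10.8% (4 promoters) and 2.06%. These matches are a description of letters and were not tested.

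Library depth ranged from 19.1 to 48.1 M gene counts (M, 1e6), so that 3 counts in a library, used as a detection floor, corresponded to 0.0624 to 0.157 CPM. PAD4 checked the labels: on CPM scaled by the trimmed mean of M-values (TMM), it was at means of 16.1 to 31.5 over the 3 mock groups and at 215 ± 73.8, 308 ± 40.9 and 252 ± 108 (SD, n = 3) at 6, 12 and 24 h with estradiol. EDS1 was not called between treatments at any time. As a check of the leaf label, 7 mesophyll transcripts summed to 36857 to 85490 CPM per library. Beside them, 3 seed transcripts summed to at most 0.133 CPM, of which CRU3 and OLEO1 were at 0 in all libraries. A set of 5 flower transcripts summed to at most 2.86 CPM, and 4 root transcripts to 18.6 to 75.6 CPM. The 12 h libraries differed from the others in overall composition: on plain CPM the median tested gene was 0.41 (log2) higher at 12 than at 6 h and 0.55 higher than at 24 h in mock, which TMM scaling brought to 0.02 and 0.03. With TMM-scaled CPM the same rule took 26 genes, all of them among the 37.

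The rule left few genes. Of 11896 genes with at least 10 CPM at 12 h in mock, 58 were at least 8-fold over 6 h and 279 at least 8-fold over 24 h. The mirrored rule took 12 genes with a peak at 6 h and 62 with a peak at 24 h. Just inside the fold limit stood GSTU4 at a smaller ratio of 8.12 and AT5G49680 at 8.18, and just outside it AT3G14740 at 7.99 and RLP34 at 7.93. Just inside the level limit stood ORP1A at 13.9 and scpl16 at 17.3 CPM, and just outside it VSR5 at 9.67 and AT2G23910 at 9.49 CPM.

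**Figure D1:**
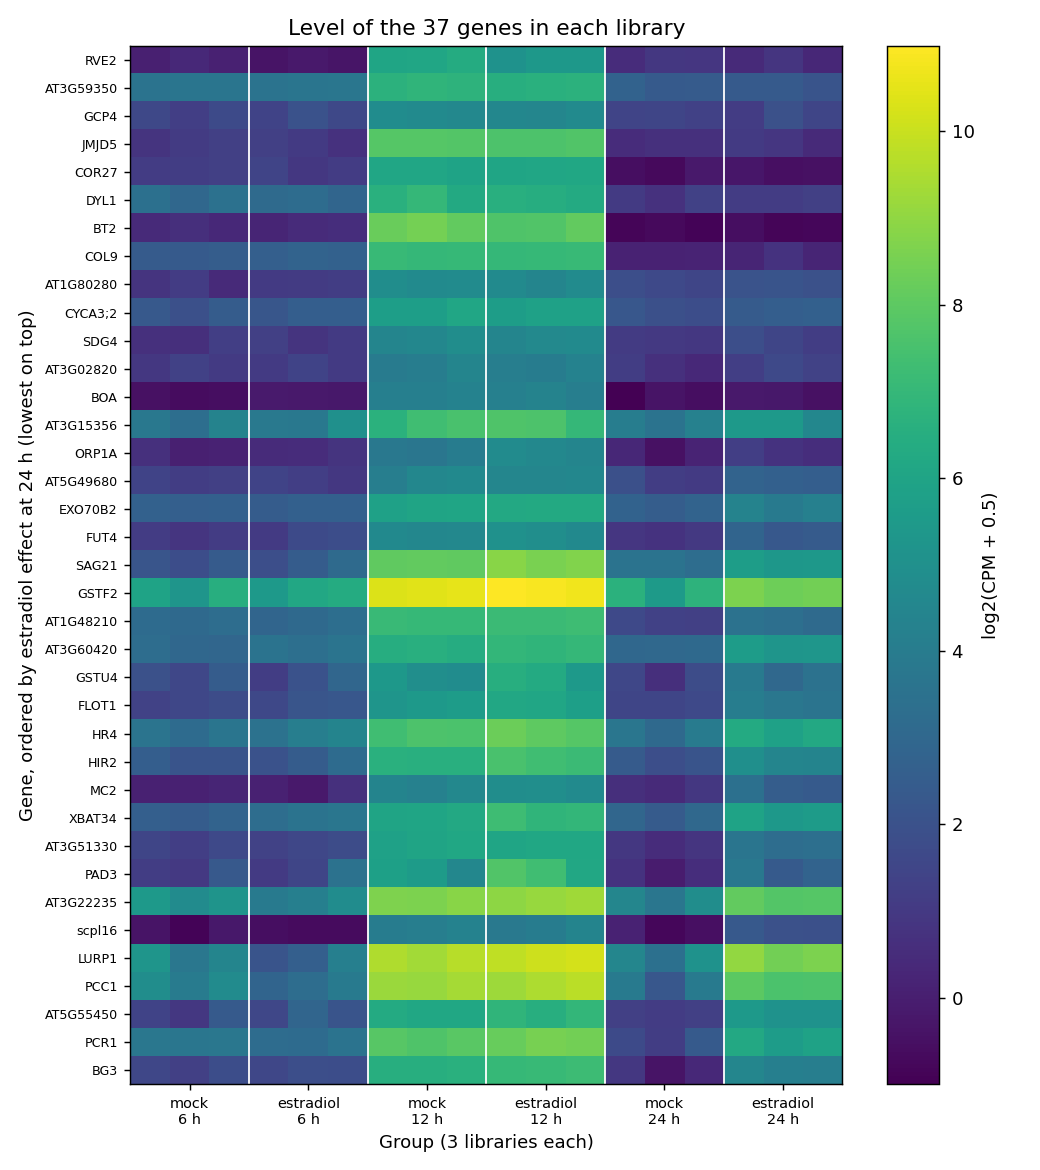
Level of each of the 37 genes in each of the 18 libraries, as log2(CPM + 0.5) on the colour scale. Columns are the 6 groups of 3 libraries, rows are ordered by the size of the estradiol effect at 24 h, and the bright middle columns are the 12 h libraries of both treatments.

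The 3 steepest peaks by the smaller ratio were those of BT2 (223), JMJD5 (108) and RVE2 (41.8), followed by BG3 (31.8) and LURP1 (29.9). These first 3, with COR27, BOA and COL9, are regulators with known roles in clock, light or nutrient responses and are described together. BT2 encodes a BTB and TAZ domain scaffold protein whose transcript is known to respond to the clock, light and sugar. Its mock libraries gave 0.860, 1.01 and 0.799 CPM at 6 h, 304, 351 and 274 CPM at 12 h, and 0.0636, 0.125 and 0.0342 CPM at 24 h. The 24 h values rest on 9 counts in all 3 libraries, so BT2 went from among the 5 most abundant of these genes to near or below the floor. JMJD5 encodes a histone demethylase-like jumonji protein with a known role in the clock. It stood at 1.57 ± 0.332 CPM at 6 h, 223 ± 6.32 CPM at 12 h and 1.04 ± 0.102 CPM at 24 h in mock (SD, n = 3).

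COR27 encodes a cold-regulated repressor of clock genes of the evening. It gave 68.2, 67.7 and 60.8 CPM at 12 h, against 1.72 to 1.89 CPM at 6 h and 0.125 to 0.376 CPM at 24 h. RVE2, a MYB-like factor of the CCA1 family, gave 65.6, 67.4 and 83.2 CPM at 12 h and stayed below 1.5 CPM in each of the 6 other mock libraries. COL9, a CONSTANS-like B-box protein that delays flowering, stood at 130.2 ± 4.36 CPM at 12 h, 5.03 ± 0.286 CPM at 6 h and 0.626 ± 0.0233 CPM at 24 h. BOA, a GARP factor closely related to the evening complex protein LUX, gave 17.5, 17.7 and 19.4 CPM at 12 h and at most 0.27 CPM elsewhere in mock, with no count in a 24 h library. In these genes the 12 h libraries lay far above all other mock libraries, as the choice required.

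Other clock genes, such as TOC1, ELF3 and CCA1, did not share this shape. TOC1 stood at 31.8, 74.1 and 3.15 CPM at 6, 12 and 24 h in mock, and ELF3 at 40.3, 100.4 and 1.66 CPM, each high at 6 h already. CCA1, which acts at dawn, stood at 24.5, 0.254 and 434 CPM. Of 15 genes in the evening clock list, BOA and COR27 met the rule, and of 11 morning genes RVE2 alone did. COR28 (AT4G33980), RVE6 and CDF5 were left out of the lists because their names had no match in the reference. Of these, COR28 met the rule at 4-fold, though not at 8-fold.

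A further 7 genes are described together because, like the regulators above, they were not called at 24 h between the treatments. DYL1, a dormancy-associated protein, was at 100.2 ± 25.6 CPM at 12 h, with libraries between 76.8 and 127 CPM. CYCA3;2, an A-type cyclin, was at 56.9 ± 9.28 CPM, GCP4, a gamma-tubulin complex protein, at 25.7 ± 1.95 CPM, and SDG4, a SET-domain histone methyltransferase, at 24.2 ± 3.87 CPM. AT3G59350, AT1G80280 and AT3G02820 were at 109, 27.7 and 17.7 CPM. Their smaller ratio lay between 8.38 and 12.3, well under that of the 6 regulators, which lay between 23.6 and 223. The 24 genes described next lay between 8.12 and 31.8, so their range overlapped that of the regulators.

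The other 24 genes are grouped here because they were called higher with estradiol at 24 h. Some have known roles in defence or stress and others have no role given here. GSTF2, a phi-class glutathione transferase, was the most abundant of all 37, with 1287, 1377 and 1490 CPM at 12 h in mock, 37.2 to 91.7 CPM at 6 h and 45.9 to 106 CPM at 24 h. Reads of GSTF2 and its near-identical neighbour GSTF3 may be split between them, so its level is uncertain. LURP1, needed for full basal defence to an oomycete, gave 750.3, 639 and 818 CPM at 12 h, and PCC1, named for its control by pathogen and clock, gave 585, 554 and 667 CPM. Both were at 4.31 to 38.0 CPM in all mock libraries of 6 and 24 h.

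AT3G22235, a neighbour of PCC1 with a similar promoter and possibly sharing reads with it, was at 423 ± 39.7 CPM at 12 h. SAG21, a mitochondrial stress protein of the late embryogenesis abundant family, was at 268 ± 4.73 CPM, and PCR1, a plasma-membrane cysteine-rich protein linked to cadmium resistance, at 228 ± 19.4 CPM. HR4, a homolog of the RPW8 resistance proteins, was at 184 ± 20.1 CPM and BG3, a beta-1,3-glucanase, at 93.6 ± 4.09 CPM. PAD3, the cytochrome P450 of the last step of camalexin synthesis, varied most, with 56.5, 47.5 and 23.2 CPM. The 12 h spread over all 37 genes, as SD over mean, ran from 1.45% to 40.6% with a median of 9.38%.

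**Figure D2:**
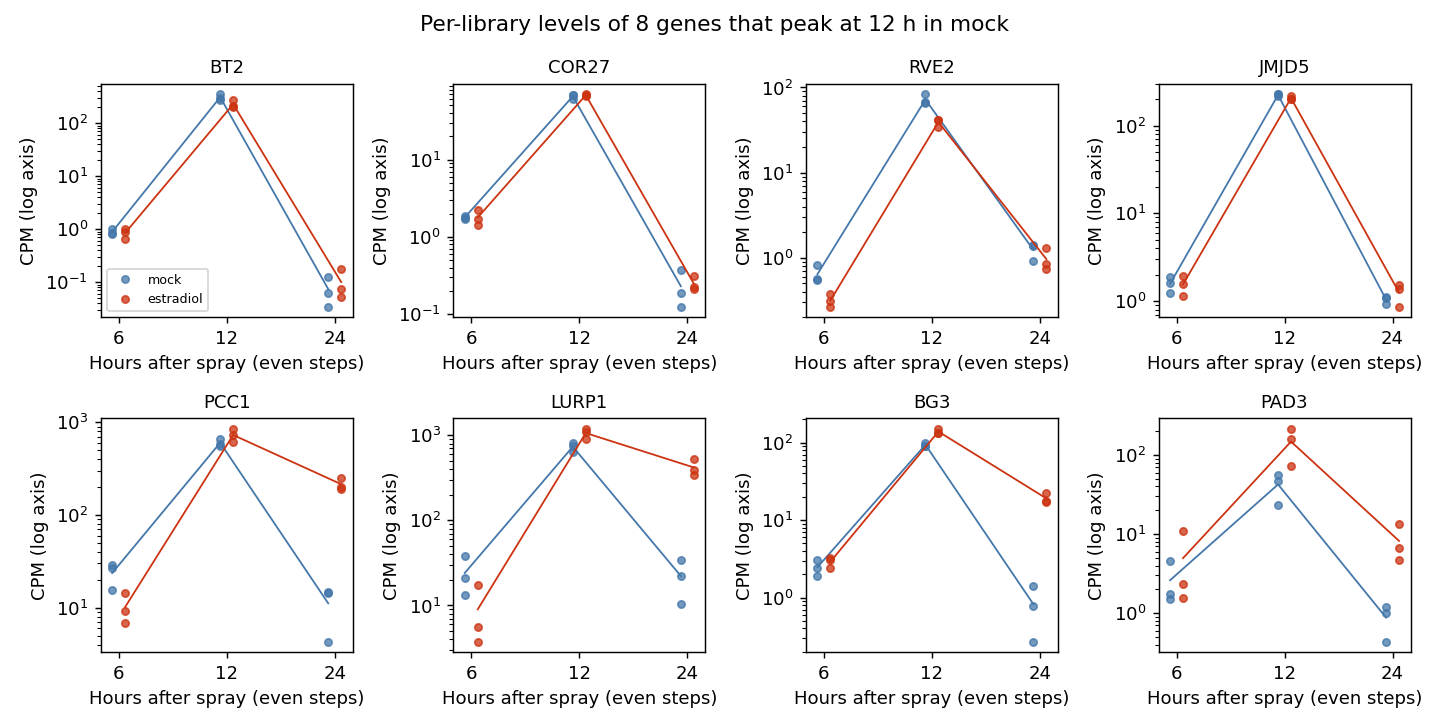
CPM on a log axis of 8 genes at 6, 12 and 24 h after the spray, drawn at even steps, with each library as a point, the group means joined by lines, and mock and estradiol set slightly apart. BT2, COR27, RVE2 and JMJD5 fell back at 24 h in both treatments, while PCC1, LURP1 and BG3 stayed at higher levels with estradiol than in mock.

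The estradiol libraries took no part in the choice, so the peak can be tested in them. All 37 genes were higher at 12 than at 6 h (edgeR's quasi-likelihood test, Benjamini-Hochberg adjusted over 19227 genes, called below 0.05), against 34.7% of all genes tested. Of the 37, 36 were higher at 12 than at 24 h, against 38.7% of all. The median log2 fold change over the 37 was 4.10 against 6 h and 2.17 against 24 h, beside 0.02 and 0.04 over all genes. All 37 had every 12 h library above every 6 h and 24 h library, as did 36.0% and 39.8% of all genes in this direction.

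LURP1 was the gene not called against 24 h. With estradiol its libraries gave 3.76, 5.66 and 17.6 CPM at 6 h, 915, 1091 and 1186 CPM at 12 h, and 521, 346 and 389 CPM at 24 h. The 12 h libraries were higher than those of 24 h without overlap, but the log2 difference of 0.80 ± 0.39 (SE) had an adjusted p of 0.0757 by edgeR's quasi-likelihood test. By limma-voom, LURP1 was called, so that all 37 were.

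A minority of the genes met the rule in estradiol. The same rule applied to the estradiol libraries took 15 genes, 0.125% of the 11956 genes at 10 CPM or more, and 13 of them were among the 37. These 13 were 35.1% of the 37 genes and 86.7% of the 15. They were BT2, JMJD5, RVE2, COR27, BOA, COL9, DYL1, CYCA3;2, SDG4, PAD3, ORP1A, SAG21 and AT1G48210. The remaining members of the estradiol list, named after their values were seen, were AT2G23910, at 9.49 CPM in mock and 10.5 CPM with estradiol at 12 h, and GAD, a glutamate decarboxylase, at 12.3 and 31.8 CPM. Of the 24 genes that left the rule, 22 did so because too much transcript was present at 24 h, and GCP4, AT3G59350 and AT3G02820 had a ratio to 6 h between 7.46 and 7.87.

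The next comparisons set estradiol against mock at each time, and an effect of PAD4 cannot be told apart from one of estradiol itself. The mock libraries in them also chose the genes, so they are not independent of the choice. The comparisons at 12 and 24 h and the changes between times share these libraries. The rule required a high mock level at 12 h and low ones at 6 and 24 h. That favours estradiol being lower at 12 h and higher at 6 and 24 h. It also favours an effect that grows from 12 to 24 h. At 6 h no gene of the 37 was called higher or lower, against 0.0260% and 0.0104% of all genes, while 6 were higher and 4 lower at an unadjusted p below 0.05, as were 4.75% and 2.82% of all genes. DESeq2 called XBAT34 higher, and limma-voom called none. XBAT34 gave 5.68, 5.05 and 6.63 CPM in mock and 9.30 to 12.4 CPM with estradiol at 6 h, without overlap, with a log2 difference of 0.93 ± 0.19 and an adjusted p of 0.162 by edgeR's quasi-likelihood test.

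PCC1 lay on the other side at 6 h, at 28.9, 15.4 and 26.6 CPM in mock and 6.86, 9.22 and 14.4 CPM with estradiol. These libraries did not overlap, yet the adjusted p was 0.406 by edgeR's quasi-likelihood test. AT3G22235, at 44.9, 27.0 and 36.1 CPM in mock and 14.3, 17.3 and 27.8 CPM with estradiol, overlapped slightly.

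At 12 h, the peak itself, 11 of the 37 genes were higher and 2 lower with estradiol, against 4.64% and 5.07% of all genes tested. XBAT34, symbol of a gene whose product is not described here, rose from 64.0, 64.7 and 74.5 CPM to 154, 116 and 122 CPM, a 1.89-fold change (log2 0.92 ± 0.14) with an adjusted p of 0.000772 by edgeR's quasi-likelihood test. No estradiol library of it lay as low as any mock library. PAD3 rose 3.45-fold, from 56.5, 47.5 and 23.2 to 213, 158 and 71.9 CPM (log2 1.79 ± 0.45, adjusted p 0.0188). Its libraries did not overlap either, although the lowest estradiol library was near the highest mock library. GSTU4, a tau-class glutathione transferase, rose 2.16-fold (adjusted p 0.0285), from 41.0, 30.0 and 28.3 to 91.7, 80.6 and 44.7 CPM.

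The other rises at 12 h were below 2-fold. They were ORP1A, an oxysterol-binding protein relative (1.70-fold), HIR2, a membrane protein of the hypersensitive-induced reaction family (1.68-fold), SAG21 (1.53-fold), FLOT1, a flotillin-like protein of membrane traffic (1.47-fold), BG3 and PCR1 (each 1.45-fold), AT3G60420 (1.34-fold) and EXO70B2, a subunit of the exocyst of secretion (1.19-fold). Their adjusted p ranged from 0.00657 for AT3G60420 to 0.0430 for PCR1. The count of 11 rests on small differences: it was 6, 2 and 6 without mock 12 h library 1, 2 or 3, and 2, 6 and 8 without estradiol 12 h library 1, 2 or 3, and XBAT34 and AT3G60420 were called in each of these fits.

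The genes that fell at 12 h were RVE2 and BT2, 5.41% of the 37 and near the 5.07% of all genes tested. RVE2 was 1.87-fold lower, at 34.4, 41.8 and 41.5 CPM with estradiol against 65.6, 67.4 and 83.2 CPM in mock (log2 -0.91 ± 0.11, adjusted p 0.000125 by edgeR's quasi-likelihood test). BT2 was 1.38-fold lower, at 202, 209.8 and 273 CPM against 304, 351 and 274 CPM (log2 -0.46 ± 0.10, adjusted p 0.00957). RVE2 libraries lay clearly apart, while the highest estradiol and lowest mock library of BT2 were nearly equal, and its call was lost without mock 12 h library 2 or estradiol 12 h library 1. COR27 gave 66.6, 67.6 and 69.7 CPM with estradiol, COL9 126, 131 and 132 CPM, BOA 18.3, 20.2 and 16.9 CPM and JMJD5 202, 201 and 214 CPM. None of these 4 was called at 12 h, and their log2 differences lay between -0.14 ± 0.08 and 0.03 ± 0.08.

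At 24 h, after the peak in mock, 24 of the 37 genes were higher with estradiol and none lower, against 8.43% and 6.54% of all genes tested. The median log2 difference was 1.95 over the 37 genes and -0.03 over all. BG3 stood at 1.40, 0.270 and 0.787 CPM in mock and at 22.2, 17.6 and 17.2 CPM with estradiol, 24.0-fold higher (log2 4.59 ± 0.24, adjusted p 4.91e-10 by edgeR's quasi-likelihood test). Each estradiol library was more than 10 times the highest mock library. PCR1 rose 19.7-fold, from 2.73, 1.77 and 4.79 to 75, 48.8 and 59.7 CPM.

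PCC1 rose 19.0-fold at 24 h, from 14.3, 4.31 and 14.8 to 252, 192 and 201 CPM (log2 4.25 ± 0.34). LURP1 rose 18.4-fold, from 22.3, 10.3 and 34.0 to 521, 346 and 389 CPM (log2 4.20 ± 0.45). AT5G55450, a lipid-transfer-like protein by its annotation, rose 19.3-fold, from 1.91, 1.66 and 1.88 to 42.7, 33.6 and 33.9 CPM. The treatments did not overlap in any of these, and mock library 2 was the lowest mock library of each.

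Among the other genes called, scpl16, a serine carboxypeptidase-like protein, rose 13.1-fold, AT3G22235 11-fold, PAD3 9.70-fold, AT3G51330 8.52-fold and XBAT34 7.18-fold. MC2, a metacaspase known to counter cell death, rose 6.15-fold, HIR2 6.00-fold, HR4 5.70-fold, FLOT1 5.32-fold and GSTU4 5.25-fold. The smaller rises were those of AT3G60420, AT1G48210, GSTF2, SAG21, the fucosyltransferase FUT4, EXO70B2, AT5G49680, ORP1A and the lectin-like AT3G15356, from 5.0-fold down to 2.22-fold. ORP1A (adjusted p 0.0153), PAD3 (0.0107) and AT3G15356 (0.0356) lost their call in 4 or 5 of 16 alternatives each, all 3 of them without mock 24 h library 2 or estradiol 24 h library 1. Without that mock library the log2 difference of ORP1A was 0.89, against 1.34 with all libraries. The other 21 genes were called in each alternative.

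All 6 regulators were among the 13 genes not called at 24 h, with log2 differences between -0.51 ± 0.26 for RVE2 and 0.87 ± 0.49 for BOA. BT2 was at 0.175, 0.0524 and 0.0746 CPM with estradiol, as near the floor as in mock. COR27 was at 0.314, 0.210 and 0.224 CPM, within its mock range. The other genes not called were DYL1, CYCA3;2, GCP4, SDG4, AT3G59350, AT1G80280 and AT3G02820, with CYCA3;2 at an adjusted p of 0.0554. The 6 regulators, the other genes not called and the genes called were set apart after the values were seen. These groups follow the calls at 24 h, so their agreement with the calls is not a result, and the split was not tested.

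**Figure D3:**
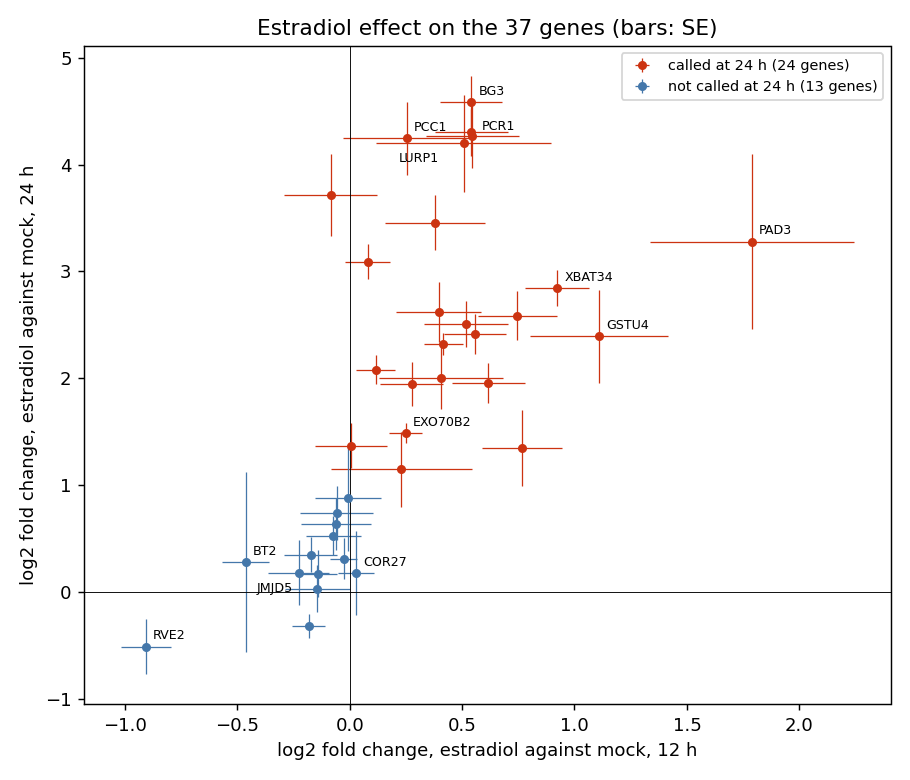
Log2 fold change of estradiol against mock at 12 h (horizontal) and at 24 h (vertical) for the 37 genes, from edgeR, with SE as bars. The 24 genes called at 24 h lie between 1.15 and 4.59 on the vertical axis, and the 13 others between -0.51 and 0.87.

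The amount left at 24 h describes the same libraries on plain CPM. The rule limited it in mock, through the 8-fold fall required by 24 h, and not with estradiol. A higher share with estradiol was thus favoured by the choice of genes. In mock, the median gene of the 37 kept 4.14% of its 12 h level at 24 h, with a range from 0.0240% for BT2 to 10.6% for AT3G15356. With estradiol the median was 15.1%, and the highest were AT3G22235 at 42.9%, LURP1 at 39.4% and XBAT34 at 38.0%. BG3 kept 0.874% in mock and 13.7% with estradiol. JMJD5 kept 0.467% and 0.610%, COL9 0.481% and 0.661%, and COR27 0.352% and 0.367%.

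**Figure D4:**
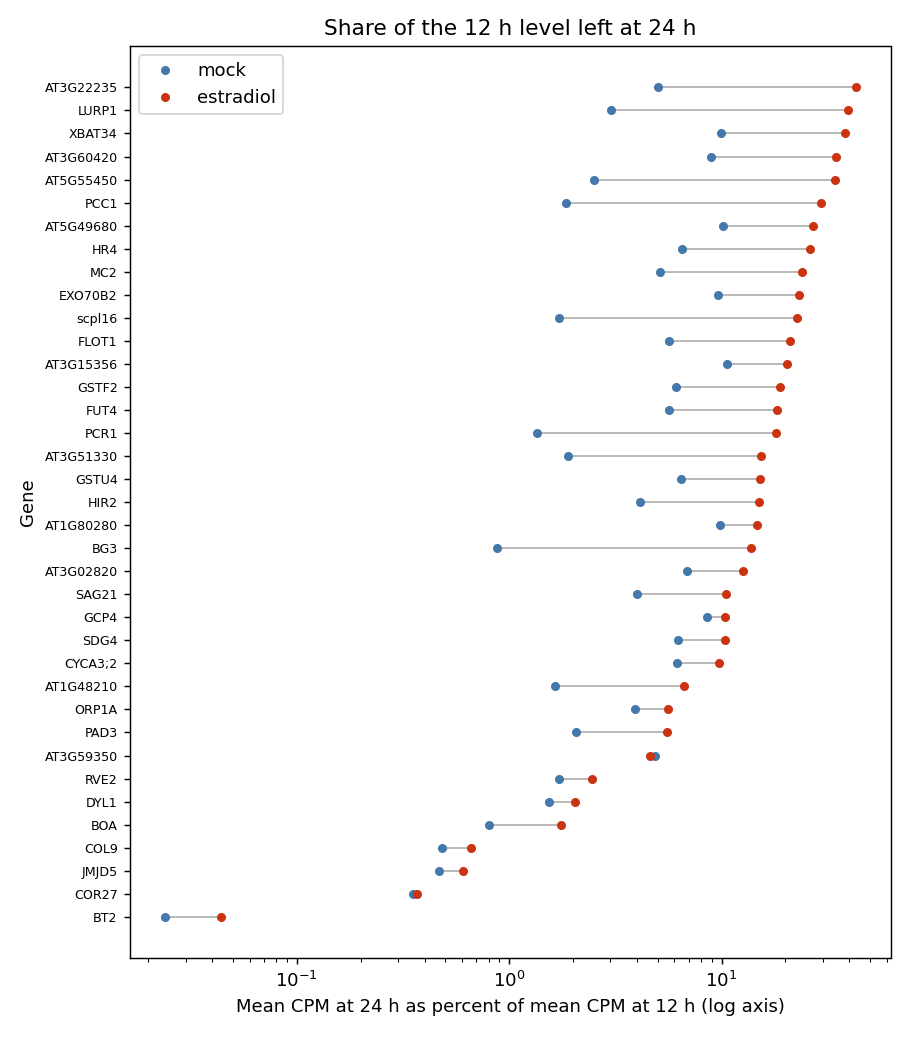
Mean CPM at 24 h as a percent of the mean at 12 h, on a log axis, in mock and with estradiol, for each of the 37 genes ordered by the estradiol value. The values run from 0.0240% to 10.6% in mock and from 0.0441% to 42.9% with estradiol.

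The change of the estradiol effect between times was tested as an interaction. From 12 to 24 h the effect grew for 20 of the 37 genes and shrank for none (0 also at an unadjusted p below 0.05, and by DESeq2 and limma-voom), against 1.85% and 0.265% of all genes. It grew most for BG3 (log2 4.05 ± 0.29, adjusted p 1.5e-07 by edgeR's quasi-likelihood test), PCC1 (3.99 ± 0.43), scpl16 (3.80 ± 0.44), PCR1 (3.76 ± 0.27) and AT5G55450 (3.72 ± 0.37). GSTF2 (1.59 ± 0.40, adjusted p 0.0422) lost this call in 10 of the 12 fits that left out a library of these groups, all but those without mock 24 h library 1 or 3, which leaves 19 genes. PAD3, GSTU4, ORP1A and AT3G15356 were higher at 24 h but were not called in this test. From 6 to 12 h the effect changed for none of the 37, against 0.312% and 0.478% of all genes, with 5 higher and 2 lower at an unadjusted p below 0.05 (5.20% and 7.61% of all) and none by DESeq2 or limma-voom.

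Genes with weaker or other peaks are set beside these without a test of the difference. All these lists were chosen from the same mock libraries. A high mock level at 24 h favours lower with estradiol at that time, and a low one favours higher. The difference between the lists is thus partly favoured by the choice. Of 175 genes with a 12 h peak in mock between 4- and 8-fold, 102 (58.3%) were higher with estradiol at 24 h and 37 (21.1%) at 12 h, compared with 64.9% and 29.7% of the 37. Of the 62 genes with a 24 h peak, 2 (3.23%) were higher and 10 (16.1%) lower at 24 h, beside 8.43% and 6.54% of all genes tested. Of the 12 genes with a 6 h peak, none was higher and 1 (8.33%) lower at 24 h.

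Lists of pathway genes are set beside the members, of which only BOA, COR27, RVE2, COL9 and BT2 are in a list. The salicylic acid list and the list of PIF factors and growth targets hold no member. The shares over all genes tested were 4.64% higher and 5.07% lower at 12 h, and 8.43% and 6.54% at 24 h. Of 15 salicylic acid genes, 13 were higher at 12 h and 14 at 24 h with estradiol, and none lower. Of 15 genes in the evening clock list, PRR7 was higher at 12 h (1.35-fold) and TOC1 at 24 h (1.39-fold), and none was lower. PRR7 was lowest at 12 h in mock, at 292, 6.11 and 72.6 CPM at 6, 12 and 24 h, so this list is not of evening peaks alone. Of 11 morning clock genes RVE2 and LCL1 were lower at 12 h and none was called at 24 h. Among 21 darkness and low-energy genes 2 were lower at 12 h, of which BT2 was one, and 3 at 24 h. Of 11 photoperiod genes tested, COL9 among them, 1 was lower at 12 h and 3 at 24 h. Of 13 PIF factors and growth targets 1 was lower at 24 h, with none higher in either list. Outside the salicylic acid list the counts are of few genes and are not read as a result.

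The median deviation of the 37 genes from their group mean ran from -0.24 to 0.24 (log2) over the 18 libraries. Single genes deviated more, from -1.54 to 1.19 in mock 24 h library 1 and from -0.48 to 0.83 in estradiol 24 h library 1. The mock values reached the size of the smallest effect called at 24 h (1.15), and the estradiol values did not. Estradiol library 3 of 6 h held 11 CPM of PAD3, against 1.55 and 2.34 CPM in the others. Between treatments at 24 h, 1 of 3 guard cell, 1 of 2 phloem and 1 of 3 epidermal markers tested were lower with estradiol, and at 12 h 1 of 7 mesophyll markers was higher and 2 lower. Summed guard cell levels were 46.4 to 49.8 CPM in mock and 40.5 to 44.8 CPM with estradiol at 24 h, and the part of such differences in the results was not tested.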

How the data were processed

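The deposited table held raw read counts per gene from 18 polyadenylated RNA libraries, whole numbers not normalized by the authors. FastQC 0.11.2, TopHat2 2.0.10, HTSeq and the genome TAIR10 are named in the submitters' processing notes. The sources used here give neither the annotation release nor the strand setting, and without strand the reads of antisense or overlapping genes are not separable. The 5 classes of reads without a gene (5.76 to 6.71% of reads) were left out. Groups and replicate numbers came from the sample titles. Levels are plain CPM, mean ± SD over 3 libraries. The counts were tested with edgeR 4.0.16 in R 4.3.3 (quasi-likelihood, TMM, filterByExpr at a count of 10 and a total of 15, 1 coefficient for each of 6 groups), which left 19227 genes, the 37 members among them. P-values were Benjamini-Hochberg adjusted over all these genes and called below 0.05, and folds are edgeR's. The members and the 8 gene lists were chosen with earlier results of these data known. The genes named were all members in a list, the 8 most abundant and the 8 with the steepest peak, the largest changes of each comparison, uncalled ones, and those next to a limit; other members were named to account for all 37.

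Alternatives were DESeq2 1.42.0, limma-voom (limma 3.58.1), other scalings, filters and thresholds, the replicate number as a block, the contrast's libraries alone, each library left out in turn, and other forms of the rule. All pairs of libraries within groups differed by more than sampling noise (chi-square over degrees of freedom 2.96 to 33.9). In simulated counts, 92.5% of 1.5-fold and 100% of 2-fold changes were recovered at 12 h (19125 genes, 8.45% of calls false), and 91.0% and 98.5% at 24 h (19133 genes, 4.46% false). The changed genes were drawn only from those above a set CPM level at the time tested. All regulators described above were below that level at 24 h, as were DYL1, GCP4, SDG4, AT1G80280 and AT3G02820. These shares do not apply to any of these genes there. Promoters were read from the RefSeq TAIR10.1 assembly by locus identifier; all 37 loci were found, 27 with a symbol, and the promoter of 1 of them is counted in the shares but not reported here.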

Additional observations from a re-analysis of the deposited data

Results flagged for a closer look

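For 20 of the 37 genes, the estradiol effect differed between 12 and 24 h by a test of the difference itself (edgeR's quasi-likelihood interaction test, adjusted over 19227 genes). The values are the change in log2 effect from 12 to 24 h, each higher at 24 h. They were 4.05 for BG3, 3.99 for PCC1, 3.80 for scpl16, 3.76 for PCR1, 3.72 for AT5G55450, 3.69 for LURP1, 3.08 for AT3G22235 and 3.01 for AT3G51330. They were 2.22 for MC2, 1.99 for HR4, 1.96 for AT1G48210, 1.92 for XBAT34, 1.91 for AT3G60420, 1.85 for FLOT1 and 1.84 for HIR2. They were 1.67 for FUT4, 1.59 for GSTF2, 1.36 for AT5G49680, 1.34 for SAG21 and 1.24 for EXO70B2. The call of GSTF2 was lost in 10 of the 12 fits that left out a library of these groups. The mock libraries of this test also chose the genes. The rule required a high mock level at 12 h and a low one at 24 h, which favours a change in this direction. The cause of these differences was not tested.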

How the results depend on the processing

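No call reversed its direction under any alternative run. The count of members higher at 12 h with estradiol depended most on the settings: it was 11, but 2 at an adjusted p below 0.01, 2 at 2-fold or more, 5 with DESeq2, 17 with the libraries of the contrast alone, and 2 to 8 with a library left out. The count lower at 12 h was 2, but 0 at 2-fold or more, 3 with limma-voom (AT3G59350 added) and 1 to 2 with a library left out. At 6 h DESeq2 called 1 gene higher. At 24 h the count higher ranged from 21 to 27, and the count lower from 0 to 1 with a library left out (AT3G59350, without mock 24 h library 3). The change of effect from 6 to 12 h was called higher for 2 genes with the contrast's libraries alone (PCR1 and PCC1) and for 0 to 2 with a library left out (LURP1 and AT3G22235, without estradiol 6 h library 3). The change from 12 to 24 h was higher for 19 to 20 genes in all alternatives, GSTF2 being the call lost. The rule took 212 genes at 4-fold, 16 at 16-fold, 26 with TMM-scaled CPM, 45 with 0.1 CPM added, and 36 to 41 with a mock library left out. The cause of these shifts was not tested.

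Same-numbered mock and estradiol libraries correlated in their deviations at -0.16 to 0.198. Differently numbered libraries were not compared, so these values cannot show whether the replicate numbers pair the libraries. With the replicate number as a block, the counts were 10 higher at 12 h, 25 higher at 24 h and 37 higher at 12 than at 24 h with estradiol. Depth limits values near 0.1 CPM, such as BT2 at 24 h.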

Other observations

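Of the 37 genes, 16 (43.2%) lie on chromosome 3, which holds 19.7% of the genes tested, 18.9% of the 175 genes with a 4- to 8-fold peak at 12 h, and 24.2% of the 62 genes with a peak at 24 h. The share was 41.7% in the 24 genes higher at 24 h and 46.2% in the other 13. PAD4 and EDS1 also lie on chromosome 3. These shares are descriptions of chosen genes and no cause was tested.

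At 24 h, 6 of 17 starch breakdown genes and 6 of 10 cold response genes were lower with estradiol and none was higher (edgeR's quasi-likelihood test), while 11 starch and 4 cold genes were not called. Of all genes tested, 6.54% were lower. The median log2 difference was -0.17 over the starch list, -0.77 over the cold list and -0.03 over all genes, and no test compared the lists with the 37 genes. Among the cold genes, GolS3, a galactinol synthase, was 3.13-fold and COR15A 2.27-fold lower. At 12 h, 1 starch gene was lower and 1 cold gene, COR15B, was higher, beside 5.07% and 4.64% of all genes tested.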
